A study of Mus musculus with 32 samples.

Results

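The cytosolic ribosomal protein genes were followed in mouse embryonic fibroblasts (MEFs), cultured connective tissue cells taken from embryos, through acute and prolonged stress of the endoplasmic reticulum (ER). Members were taken by name: symbols that begin with Rpl or Rps followed by a digit, together with Rplp0, Rplp1, Rplp2 and Rpsa, without the S6 kinases, the symbols marked as pseudogenes and the tissue-restricted or divergent paralogs. This gave 80 of the 20234 symbols in the count table, 48 of the large and 32 of the small ribosomal subunit. Rpl34 is left out because its row is merged with a pseudogene symbol. Within the 80, Rpl32l and Rpl37rt are annotated as processed pseudogenes, and Rps27_Rps27rt is a merged symbol that is treated here as Rps27. Ribosomal protein genes have many near-identical processed copies, so reads of any member may be shared with copies elsewhere in the genome.

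The cells received thapsigargin, which blocks the calcium pump of the ER and so causes ER stress, for 0 h (control), 1 h, 16 h, or 16 h with a PERK inhibitor (PERKi) present during the last 4 h. PERK sits in the ER membrane and, when activated by ER stress, lowers translation initiation by phosphorylating eIF2. Cytosolic RNA was taken from each sample, and a part was fractionated on a sucrose gradient to collect polysome RNA, here mRNAs carrying more than 4 ribosomes. With 4 replicates per condition this gave 16 samples and 32 libraries. The labels give no genotype, inhibitor name, dose or solvent control.

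Ribosomal proteins assemble with ribosomal RNA into the small subunit, which reads the mRNA, and the large subunit, which joins amino acids. Their mRNAs begin with a terminal oligopyrimidine (TOP) tract, a run of C and T directly at the transcription start, which lets the kinase mTORC1 and the RNA-binding protein LARP1 raise or lower the translation of the whole family together. Because their mRNAs are short, few ribosomes fit on each of them, so a fraction defined by ribosome number samples them differently from long mRNAs.

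Sequences at the transcription start are shown for 6 members, chosen for changes in polysome association, described further on, that run from large falls to a value near 0. Each line holds the 10 bases before the RefSeq start and the 20 bases from it (build GRCm38.p6). Capitals mark the unbroken run of C and T that covers the start, as far as it lies in this window. For Rpl7a the window shows 17 of the 21 bases of the run.
Rpl14 (chr9:120571507-120571536, plus strand): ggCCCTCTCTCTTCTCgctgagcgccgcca
Rps6 (chr4:86857348-86857377, minus strand): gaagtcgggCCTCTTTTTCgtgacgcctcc
Rpl15 (chr14:18270967-18270996, minus strand): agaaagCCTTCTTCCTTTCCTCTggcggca
Rpl7a (chr2:26910797-26910826, plus strand): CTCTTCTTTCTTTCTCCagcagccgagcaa
Rplp2 (chr7:141447641-141447670, plus strand): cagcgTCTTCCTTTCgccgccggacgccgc
Rpl38 (chr11:114668570-114668599, plus strand): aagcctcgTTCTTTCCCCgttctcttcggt
A start row was found for 57 of the 78 members annotated as protein-coding. A run of C or T of at least 7 bases that covered the annotated first base was present in 17 of these 57 members (29.8%), against 852 of 15233 other protein-coding genes (5.59%). On the opposite strand (a run of A or G) the shares were 3.51% and 9.51%. A run of at least 10 bases anywhere within 40 bases on either side of the start was found in 59.6% of members and 16.4% of other genes. The pseudogene symbols are not in these shares, although Rpl32l also has such a run, of 10 bases. These are matches in annotated windows, not measured starts: an annotated start that is off by a few bases misses the tract.

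Library totals ran from 19.3 to 41.8 M counts, and all 80 members passed the low-count filter in both RNA kinds. The 10 fibroblast markers were all at 1 CPM (counts scaled to library size) or more, though their sum moved with the conditions. In cytosolic RNA it ranged from 7712 to 10519 CPM in controls, 17196 to 20719 CPM at 1 h, 4056 to 4712 CPM at 16 h and 3876 to 4427 CPM with the inhibitor. In polysome RNA it ranged from 7971 to 10119 CPM in controls, 32152 to 40245 CPM at 1 h, 9490 to 11676 CPM at 16 h and 3694 to 4148 CPM with the inhibitor. The part of these shifts in the results was not tested. Macrophage, endothelial, epithelial and muscle markers summed to under 5 CPM in every group, and neural markers to between 16.1 and 62.9 CPM. Library deviations from the group mean followed the GC content of transcripts: over genes, Spearman's rho between deviation and GC content ran from -0.844 to 0.830, and was beyond 0.5 in size in 23 of 32 libraries. Control replicate 1 stood furthest out in cytosolic RNA (rho -0.844), opposite to control replicate 2 (0.830). The GC content of members had a median of 50.8%, and that of other genes 50.5%. The spread between samples was greatest in Rpl36, Rplp1, Rpl29 and Rplp2, and results on these genes carry wide errors. Corrections for GC content and, except in cytosolic RNA, for coding length were therefore added beside the main fit and are given where they change a result.

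Ribosomal protein genes gained ground in cytosolic RNA and lost it in polysomes. In cytosolic RNA they held 4.17, 4.78, 4.67 and 4.60% of counts in the 4 control libraries, and 4.96, 4.94, 4.93 and 4.82% after 1 h. At 16 h the share was 5.35, 6.20, 6.05 and 5.87%, and with the PERK inhibitor 8.02, 7.36, 7.60 and 7.52%. Each step lay above the one before it in every library, so the 4 conditions did not overlap. In polysome RNA the share was 4.25, 4.59, 4.25 and 4.51% in controls, 2.25, 2.15, 2.22 and 2.22% at 1 h, and 2.35, 2.39, 2.22 and 2.49% at 16 h. With the inhibitor it was 3.55, 3.55, 3.60 and 3.50%, between the 16 h and the control libraries and overlapping neither. These are shares of a library, so a rise in a gene's RNA and a fall in the rest of the RNA cannot be told apart. Nor can fewer cells of a type and less RNA per cell, since the samples are bulk RNA.

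**Figure D1:**
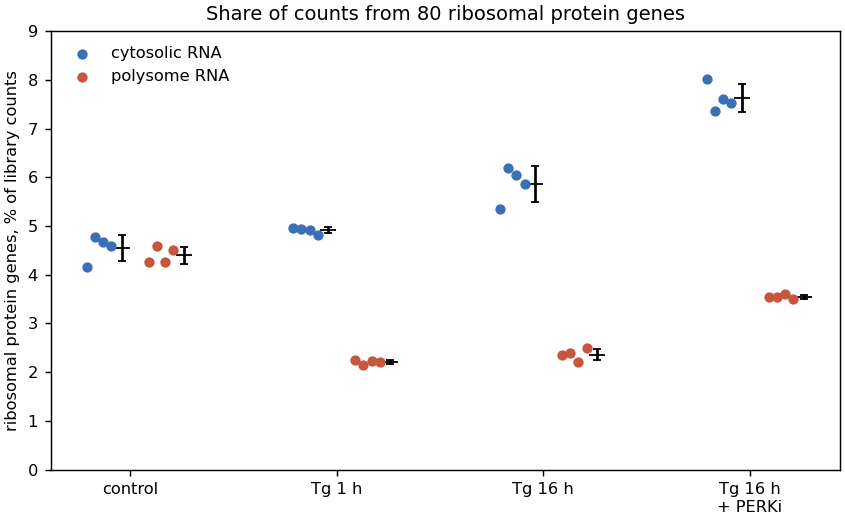
Percentage of library counts from the 80 ribosomal protein genes (y axis) by condition (x axis), with cytosolic RNA in blue and polysome RNA in red; points are libraries and black marks the mean and SD of 4. Cytosolic means rise from 4.55% in controls to 7.63% with the inhibitor, while polysome means fall from 4.40% to 2.21% at 1 h and reach 3.55% with the inhibitor.

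Before stress, long ribosomal protein mRNAs were rich in the polysome fraction and short ones poor. The log2 ratio of polysome to cytosolic RNA was above 0 for 34 of the 80 members in controls, with a median of -0.12. Rpl8 (257 codons) had the highest mean ratio at 1.98 ± 0.38 (SD, n = 4), followed by Rpl15 at 1.77 ± 0.24 and Rpl19 at 1.68 ± 0.32, whose ratios differ from that of Rpl8 by less than their spread. Rpl41, which encodes the shortest member at 25 codons, had the lowest ratio at -2.32 ± 0.52, with Rpl39 (51 codons) at -2.26 ± 0.43 beside it. Across the 78 members with a coding length, the control ratio and log10 length had a Pearson r of 0.80 and a Spearman rho of 0.81. This is a description over genes that share the same libraries. Control ratios of other genes are not given here, so a trait of the family and a trait of the fraction cannot be told apart. Where the ratio is 0 depends on the scaling over both RNA kinds. After stress the ratio was above 0 for 1 member at 1 h (median -0.99), 2 at 16 h (median -1.25) and 7 with the inhibitor (median -1.21).

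Within 1 h of stress most ribosomal protein mRNAs lost polysome association relative to other mRNAs. Translational efficiency, meaning polysome RNA relative to cytosolic RNA, fell for 58 of 80 members and rose for 4 (edgeR's quasi-likelihood test of the interaction, adjusted p under 0.05). Over all 12561 genes tested, 34.4% fell and 33.4% rose. The members' median log2 change was -1.17, against -0.01 over all genes. Both subunits took part: 36 of 48 large-subunit members fell with a median of -1.19, and 22 of 32 small-subunit members with a median of -0.998. In polysome RNA itself 60 members fell and 4 rose (median -0.92), where 38.5% of all genes fell and 41.1% rose.

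Rpl6, a large-subunit protein, showed the lowest value. Its log2 ratio was 1.80, 1.64, 1.56 and 1.62 in the control samples and -0.67, -0.76, -0.82 and -0.72 after 1 h. The sets of samples lay far apart, and the fitted change was -2.40 ± 0.060 (SE), a 5.27-fold fall (adjusted p = 2.6e-15). Rps7 of the small subunit fell by 2.16 ± 0.062 (adjusted p = 7.3e-15), Rpl8 by 2.08 ± 0.17, Rpl14 by 2.05 ± 0.058 and Rpl19 by 2.01 ± 0.14. Rps6, the ribosomal protein that S6 kinases phosphorylate, had ratios of 1.34, 1.52, 1.55 and 1.43 in controls and -0.42, -0.56, -0.52 and -0.32 at 1 h. It fell by 1.92 ± 0.071 (3.78-fold), with no overlap between the groups. The X-linked Rps4x fell by 2.01 ± 0.10, and Rps27a, which is made as a fusion with ubiquitin, by 1.50 ± 0.13.

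The 4 members that rose at 1 h encode very short proteins: Rpl41 by 0.84 ± 0.25, Rps27 by 0.55 ± 0.12, Rpl39 by 0.54 ± 0.18 and Rps27l by 0.42 ± 0.10 (log2, adjusted p between 0.00049 and 0.016). Rpl41 had ratios of -1.73, -2.48, -2.95 and -2.11 in controls and -1.43, -1.44, -1.48 and -1.56 at 1 h, so every stressed sample lay above every control. Its coding sequence has only 78 nt, and the fraction was meant to hold mRNAs with more than 4 ribosomes. Whether its polysome reads come from such mRNAs was not tested. Under offsets that remove each library's trend on coding length, these rises were lost: Rpl41 turned to -0.74 (adjusted p = 0.0010), Rpl39 to -0.44 (0.052) and Rps27l to -0.095 (0.35), and Rps27 was not called (0.79). Analysis of partial variance, a fit of polysome RNA with cytosolic RNA as a covariate, also lost the calls for Rpl39, Rps27 and Rps27l. Its slope was set for each gene by the spread within conditions, with no limit on sign or size. Values from that fit therefore need not match a change of the ratio. With the coding length offsets 68 members fell and 1 rose, with a median of -1.01.

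**Figure D2:**
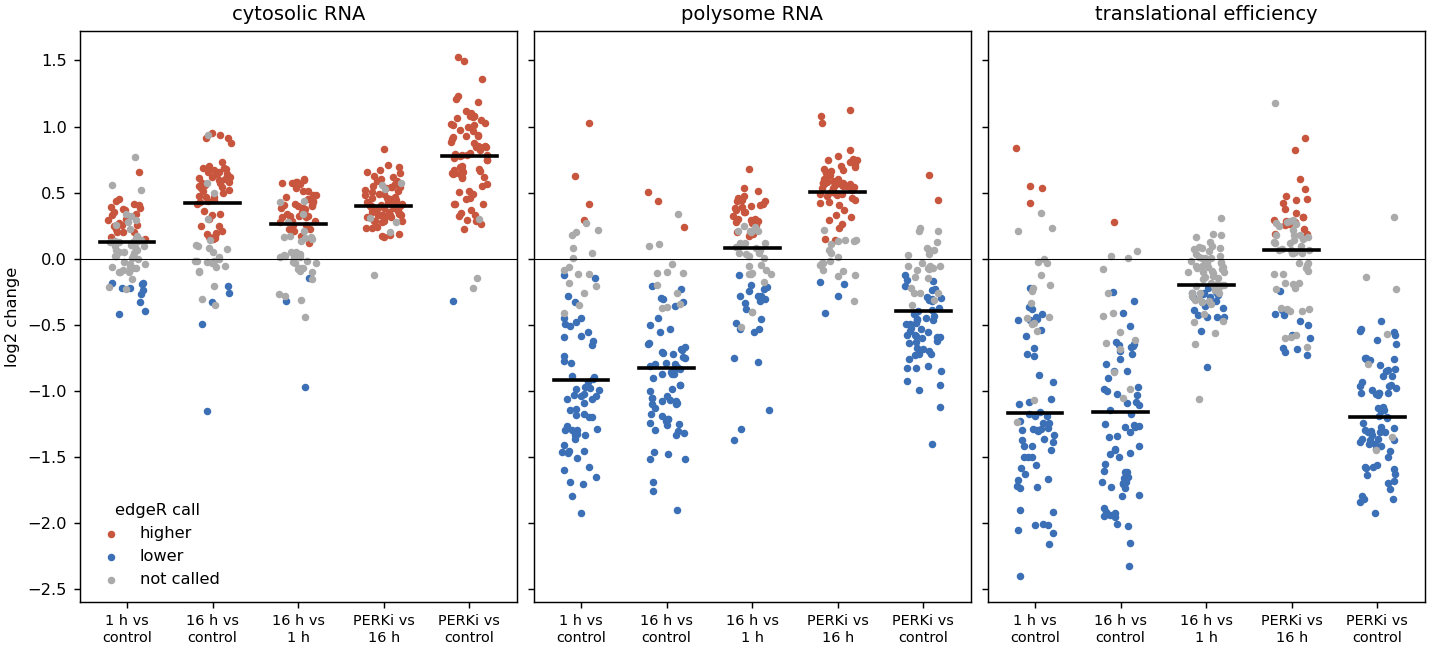
Log2 change of each of the 80 members (points) in cytosolic RNA, polysome RNA and translational efficiency for the 5 comparisons (x axis); red points were called higher, blue lower and grey not called by edgeR, and black bars are medians. Cytosolic medians lie above 0 in all comparisons, whereas the medians of translational efficiency lie between -1.20 and -1.16 in each comparison with control.

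After 16 h the ratios were again low. This comparison uses the same 4 control samples as that at 1 h, so the 2 sets of changes are not independent. Translational efficiency against control fell for 65 members and rose for 1 (median -1.16), where 33.0% of all genes fell and 31.1% rose. Rpl6 fell by 2.33 ± 0.060, Rps7 by 2.15 ± 0.062, Rps4x by 2.02 ± 0.10 and Rps6 by 2.01 ± 0.071. Rpl14 was the next lowest, and Rpl7a fell by 1.95 ± 0.068. Only Rps27l, a paralog of Rps27 induced by p53, was called higher, at 0.27 ± 0.10 (adjusted p = 0.021), and this call was lost with GC offsets (0.60), with length offsets (0.53) and without control replicate 1 (0.10) or 16 h replicate 4 (0.068). In polysome RNA 65 members fell and 3 rose (median -0.82), against 42.9% and 42.3% of all genes. Analysis of partial variance called 56 members lower and 1 higher in translational efficiency, with a median of -0.72.

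Between 1 h and 16 h the polysome association of the family moved little. Translational efficiency was lower at 16 h for 19 members and higher for 0 (median -0.20), where 13.6% of all genes were lower and 14.5% higher. Against other genes of the same coding length, 46 of 78 members lay below the median of their length class. The direction rests on the method: length offsets called 3 lower and 3 higher, GC offsets 23 lower and 3 higher, and analysis of partial variance 11 lower and 29 higher. Without 1 h replicate 1 the count was 12 and without 16 h replicate 2 it was 11. In polysome RNA 22 members were lower and 29 higher (median 0.08), against 40.0% and 38.4% of all genes. Rpl41 fell back from its value at 1 h by 0.82 ± 0.25 (adjusted p = 0.024, lost with length offsets and in 4 of 8 fits that each left out a sample). Rpl11 of the 5S particle fell by 0.44 ± 0.060 (adjusted p = 4.3e-05), with ratios of -0.16, -0.21, -0.26 and -0.10 at 1 h and -0.62, -0.57, -0.64 and -0.68 at 16 h.

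In cytosolic RNA the members moved the other way, by smaller amounts. At 1 h 25 rose and 10 fell (median 0.13), close to the 28.1% of all genes that rose and below the 28.1% that fell. At 16 h 51 rose and 5 fell (median 0.42), where 37.9% of all genes rose and 39.4% fell. From 1 h to 16 h 43 rose and 3 fell (median 0.27; 37.7% of all genes in each direction). Rpl8 rose most among called members at 1 h, by 0.65 ± 0.15. Its levels were 236, 412, 368 and 346 CPM in controls and 603, 509, 546 and 503 CPM at 1 h, with no overlap. At 16 h the stalk protein Rplp1 had the largest called rise, 0.95 ± 0.40 (adjusted p = 0.042). Its control levels of 85.6, 336, 220 and 206 CPM overlapped the 195, 658, 546 and 390 CPM at 16 h. Read by replicate number, each level at 16 h lay above its control, but no fit paired only these conditions. The call was lost in 5 of 8 fits that left out a sample, with adjusted p up to 0.13. It was also lost with the replicate block and with no low-count filter. Rpl13a rose by 0.93 ± 0.11, Rps12 by 0.92 ± 0.19, Rpl4 by 0.91 ± 0.051 and Rps7 by 0.87 ± 0.052.

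Rpl37a, a zinc-binding protein of the large subunit, went against most of the family in cytosolic RNA. At 16 h against control the 10 members under 300 nt, Rpl37a among them, had a median of -0.06, with 1 higher and 1 lower. Other genes of that length had a median of -0.19, and the members of 300 to 449 nt had 0.34. The levels of Rpl37a were 257, 277, 305 and 295 CPM in controls and 239, 268, 248 and 253 CPM at 1 h. At 16 h they were 133.4, 145.2, 140.3 and 136.9 CPM, below every other sample. The fall at 16 h was 2.22-fold (log2 -1.15 ± 0.059, adjusted p = 1.1e-11), the only change of at least 2-fold among the members in this comparison. With the PERK inhibitor Rpl37a stood at 247, 251, 223 and 232 CPM, up by 0.83 ± 0.059 from 16 h and still 0.32 ± 0.058 below control on the log2 scale. Rpl11 fell by 0.32 ± 0.038 at 16 h (adjusted p = 7.0e-07), from 472, 497, 487 and 491 CPM to 412, 427, 420 and 435 CPM. Its partner in the 5S particle, Rpl5, rose by 0.73 ± 0.068. The difference between the partners was not tested.

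With late PERK inhibition ribosomal protein mRNAs rose in both RNA kinds, as did other short mRNAs. Against 16 h without inhibitor, 73 of 80 members rose in cytosolic RNA and 0 fell (median 0.40), where 42.2% of all genes rose, 32.5% fell and the median of all genes was 0.10. All 32 small-subunit members rose. No fall was called by DESeq2 or by any other setting tried. Coding length offsets were not among the settings for cytosolic RNA. Other genes of the same coding length rose by similar amounts: under 300 nt the median was 0.75 (members 0.64), at 300 to 449 nt 0.55 (members 0.41), at 450 to 599 nt 0.39 (members 0.40) and at 600 to 749 nt 0.28 (members 0.34). In the longest class, 750 to 1299 nt, it was 0.11 (members 0.31). The largest rises among called members were those of Rpl37a, the pseudogene symbol Rpl37rt (0.71) and Rpl37 (0.69 ± 0.13), and the smallest those of Rpl4, Rps3 and Rpl7 (0.17 to 0.18). The calls for Rpl4 and Rpl7 were lost with DESeq2 size factors and with the DESeq2 test. In polysome RNA 58 rose and 4 fell (median 0.50), against 42.1% and 40.7% of all genes. Coding length offsets removed this excess in polysome RNA: 15 members were higher and 20 lower, with a median of -0.04.

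Relative to cytosolic RNA, the inhibitor moved single members in both directions and the family no more often than other genes. Translational efficiency rose for 20 of 80 members and fell for 12, with a median of 0.07, where 26.4% of all genes rose and 33.7% fell with a median of -0.09. Rpl7a rose by 0.91 ± 0.067, with ratios of -0.51, -0.51, -0.51 and -0.37 at 16 h and 0.42, 0.36, 0.49 and 0.48 with inhibitor. Rpl6 rose by 0.82 ± 0.059, Rpl15 by 0.60 ± 0.11 and Rpl19 by 0.53 ± 0.14. With length offsets the calls for Rpl15 (adjusted p = 0.15) and Rpl19 (0.40) were lost. At the other end Rps12 fell by 0.73 ± 0.23, Rpsa by 0.71 ± 0.14, Rps28 by 0.68 ± 0.18 and Rpl3 by 0.67 ± 0.060. Analysis of partial variance lost the calls for Rps12 (adjusted p = 0.11), Rpsa (0.22) and Rps28 (0.39), and length offsets that for Rps28 (0.51). Rpl3, which reaches towards the peptidyl transferase centre, had ratios of 0.29, 0.38, 0.44 and 0.30 at 16 h and -0.32, -0.42, -0.30 and -0.23 with inhibitor. It went lower in polysome RNA too, by 0.41 ± 0.034, while its cytosolic RNA rose by 0.28 ± 0.040. These counts depend on the method, since length offsets called 9 higher and 18 lower and analysis of partial variance 49 higher and 2 lower. The calls for Rpl3, Rpl6 and Rpl7a held in every alternative fit, with their direction.

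**Figure D3:**
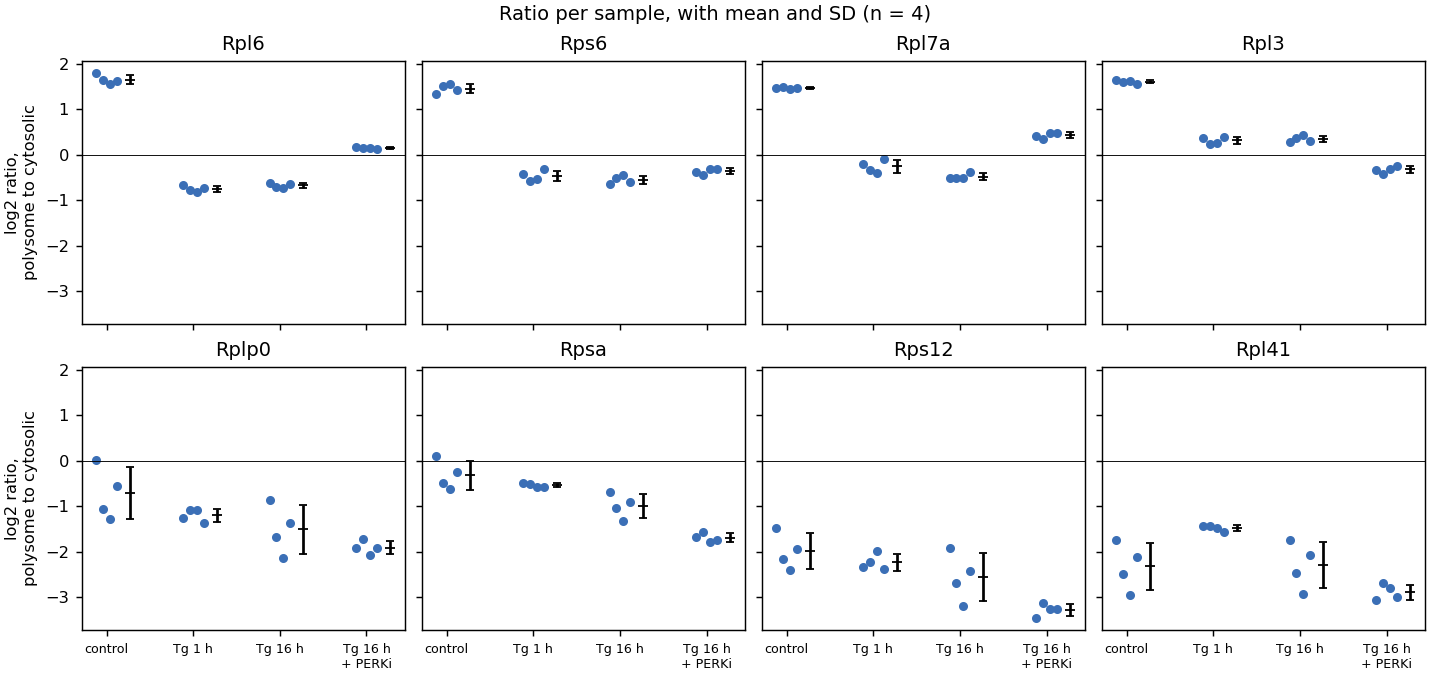
Log2 ratio of polysome to cytosolic RNA in each sample (blue points) of 8 members by condition, with the mean and SD of 4 in black. Rpl6 and Rpl7a fall at 1 h and 16 h and rise in part with the PERK inhibitor, Rps6 stays between -0.65 and -0.30 in all stressed samples, Rpl3 falls further with the inhibitor, and Rplp0, Rpsa, Rps12 and Rpl41 have wide spreads in controls.

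Against control, the inhibitor group had higher cytosolic and lower polysome levels of the family. It shares the control samples with the earlier comparisons and the inhibitor samples with the last. In cytosolic RNA 76 members were above control and 1 below (median 0.78), where 38.1% of all genes were higher and 35.2% lower. The highest were Rplp1 at 1.52 ± 0.41, Rpl36 at 1.49 ± 0.47 and Rps12 at 1.36 ± 0.19. In polysome RNA 53 were below control and 2 above (median -0.39; 40.3% and 36.8% of all genes). Translational efficiency was below control for 73 members and above for 0 (median -1.20), where 27.1% of all genes were lower, 16.3% higher and the median of all genes was -0.12. The 7 members not called were Rpl36, Rplp1, Rpl32l, Rpl41, Rps27l, Rpl36al and Rpl29. No rise was called by DESeq2 either. This count is sensitive to how cytosolic RNA is taken into account: analysis of partial variance called 20 lower and 1 higher, with a median of -0.27, while length offsets called 72 lower and GC offsets 74 lower.

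Coding length ordered the response to stress. Over 78 members, the change of translational efficiency and log10 coding length had a Pearson r of -0.70 at 1 h and -0.72 at 16 h (rho -0.71 and -0.74), as a description over genes that share libraries. The control ratio enters both changes and itself had an r of 0.80 with log10 length. Its part in these correlations was not tested. At 1 h the 10 members under 300 nt had a median of 0.29, the 27 members of 300 to 449 nt -0.74, the 19 of 450 to 599 nt -1.33, the 9 of 600 to 749 nt -1.56 and the 13 of 750 to 1299 nt -1.58. Other genes of the same lengths also declined with length, from a higher level, with medians of 0.64, 0.22, -0.15, -0.33 and -0.44. The members' median lay below that of the others in every length class, and 65 of 78 lay below the lower quartile of their class, as did 71 at 16 h. With the PERK inhibitor against control the slope among other genes was nearly absent (medians from -0.17 to -0.02), yet members still ranged from -0.57 in the shortest class to -1.50 in the longest, and 75 of 78 lay below the lower quartile. In the comparison of inhibitor with 16 h only 12 of 78 did, where a quartile holds 25% of the other genes by construction.

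**Figure D4:**
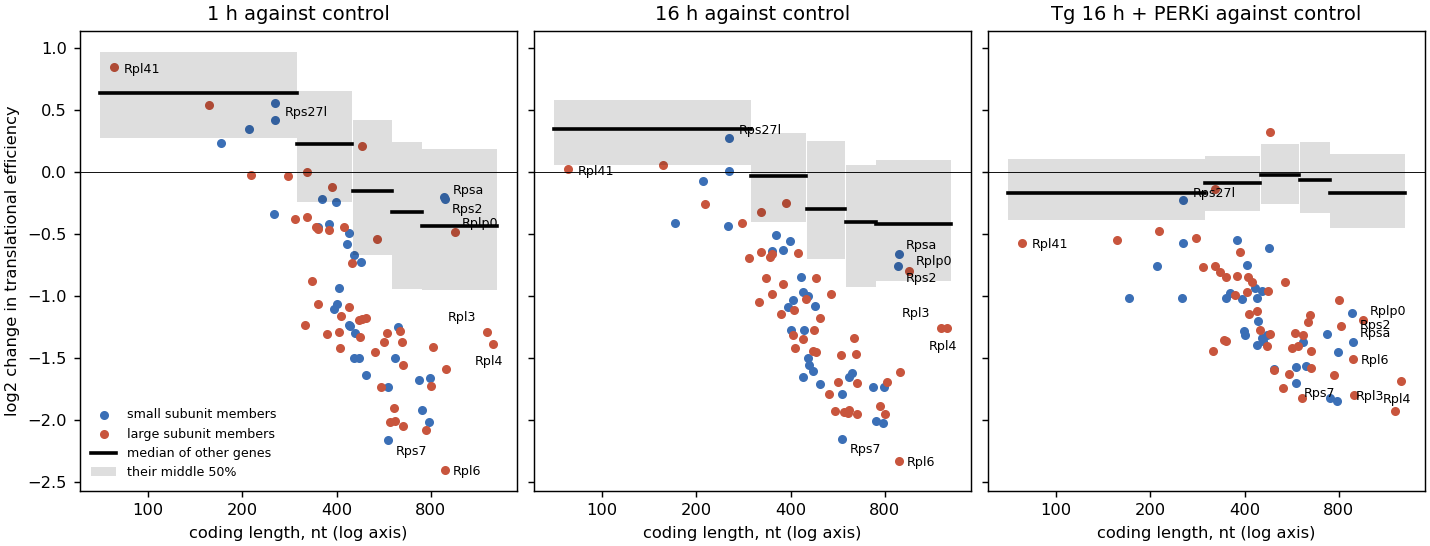
Log2 change in translational efficiency of each member against coding length (log axis, nt), with small-subunit members in blue and large-subunit members in red, for 1 h, 16 h and the inhibitor group against control; black lines and grey bands are the median and middle 50% of other genes in the same length class. Of the 78 members, 74 at 1 h, 78 at 16 h and 77 in the inhibitor group lie below the median of their length class, and in the third panel the lines are nearly level while the members decline with length.

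Some long members departed from this order at 1 h. Rpsa, the ribosomal protein also known as the laminin receptor precursor, had ratios of 0.10, -0.49, -0.62 and -0.25 in controls and -0.49, -0.51, -0.56 and -0.58 at 1 h. Its change of -0.22 was not called (95% interval -0.52 to 0.073). It then fell by 0.66 ± 0.14 at 16 h against control, a call lost with length offsets, and by 1.37 ± 0.14 with the inhibitor. Rps2, singled out after its values were seen, followed the same course with -0.20 ± 0.22 at 1 h, -0.76 ± 0.22 at 16 h and -1.13 ± 0.22 with inhibitor. Rplp0, which anchors the stalk of the large subunit, had -0.49 ± 0.28 at 1 h (adjusted p = 0.13). Already before stress the mean log2 ratios of Rpsa, Rps2 and Rplp0 were low, at -0.32, -0.42 and -0.71. The other members of 750 to 1299 nt had control means of 0.92 or more. What part the control ratio has in these departures was not tested. The longest members, Rpl4 (419 codons) and Rpl3 (403 codons), fell by 1.38 ± 0.075 and 1.29 ± 0.060 at 1 h. With the inhibitor against control their changes were -1.68 ± 0.075 and -1.92 ± 0.060, and the call for Rpl4 was lost in analysis of partial variance (adjusted p = 0.16).

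**Figure D5:**
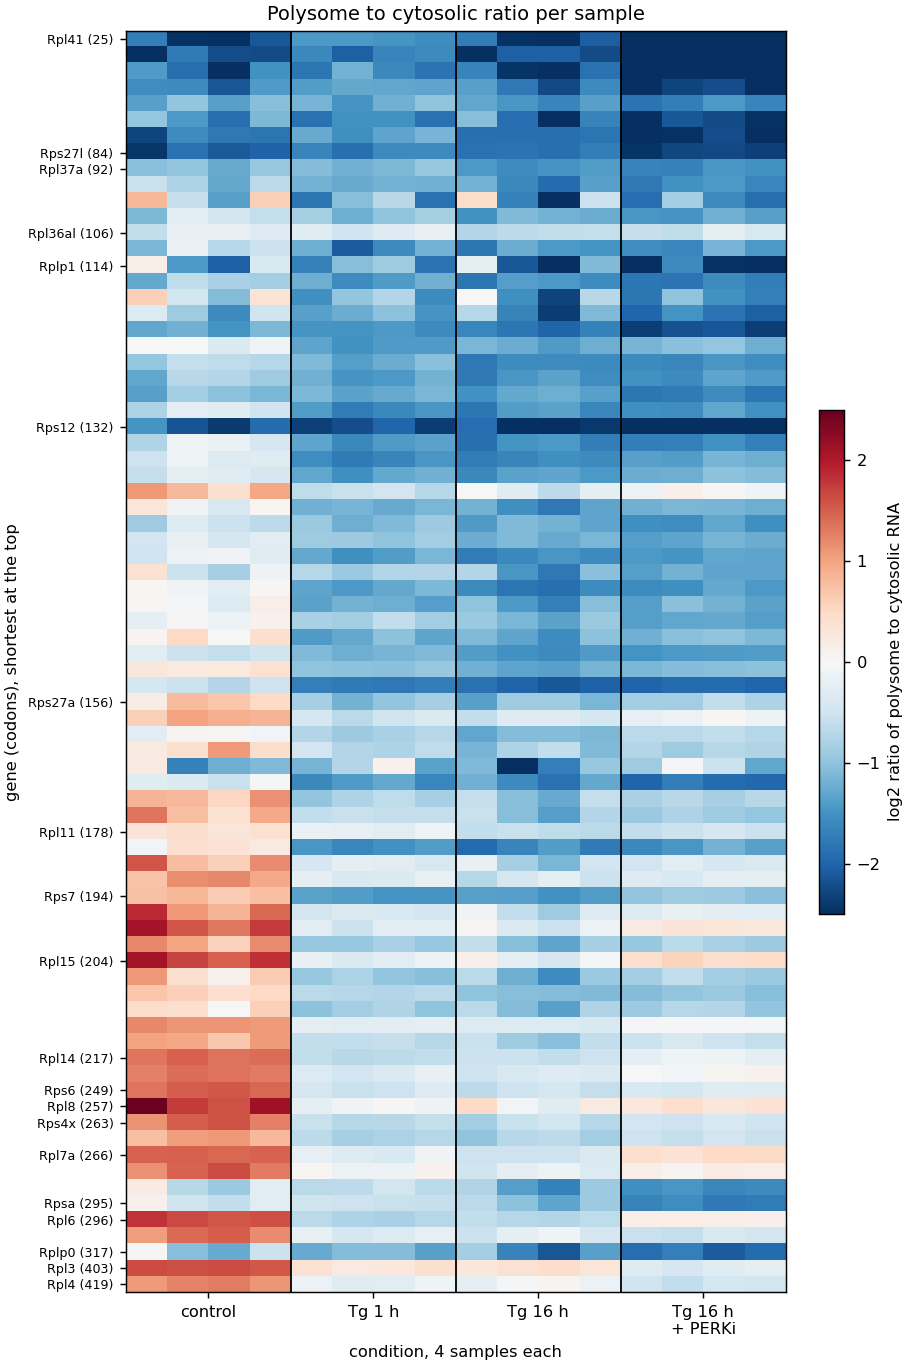
Log2 ratio of polysome to cytosolic RNA (colour, red above 0 and blue below) of the 78 members with a coding length (rows, shortest at the top, with 20 of them labelled and their codons in brackets) in each of the 16 samples (columns, grouped by condition); the colour scale is capped at its ends. Red cells fill the lower, longer rows in control columns and are few in the stressed columns, where 1 member at 1 h, 2 at 16 h and 7 with the inhibitor have a mean above 0.

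By role, the stalk proteins that recruit translation factors to the ribosome gave the least certain values. Rplp1 changed by -0.44 at 1 h with a 95% interval of -1.68 to 0.79, and Rplp2 by -1.07 with an interval of -2.08 to -0.053 that did not pass adjustment (adjusted p = 0.056). Ratios of Rplp1 in controls ran from 0.15 in replicate 1 to -2.04 in replicate 3, the widest among the stalk genes; GC content moves with these samples, and its part in the spread was not tested at the level of single genes. In the inhibitor group against control Rplp0 fell by 1.19 ± 0.28 and Rplp2 by 1.36 ± 0.46 (lost in 5 of 8 fits that left out a sample), and Rplp1 at -1.35 ± 0.57 was not called (adjusted p = 0.070). Analysis of partial variance lost both calls, with Rplp0 at 0.12 (adjusted p = 0.72) and Rplp2 at -0.15 (0.80). Within the 5S particle, which carries 5S rRNA into the large subunit and when free binds the p53 regulator Mdm2, Rpl5 fell by 1.58 ± 0.11 at 1 h and Rpl11 by 0.54 ± 0.060. Their coding lengths also differ, and the difference between them was not tested.

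Paralogs and members linked to specialised ribosomes spread across the range. Rpl36a fell by 0.36 ± 0.15 at 1 h (adjusted p = 0.036, lost with DESeq2 size factors and in 5 of 8 fits that left out a sample), while its paralog Rpl36al had 0.00 ± 0.10, with a 95% interval of -0.22 to 0.22. Rpl36al was also not called with the inhibitor against control (-0.14, interval -0.36 to 0.080). Analysis of partial variance, with its unrestricted slope, called Rpl36al higher (0.74). The polysome RNA of Rpl36al then stood above control by less, 0.45 ± 0.054, a call lost with length offsets (adjusted p = 0.068). Rpl22 had -0.12 ± 0.10 at 1 h and fell by 0.64 ± 0.10 with the inhibitor against control, a call lost in analysis of partial variance (adjusted p = 0.53). Rpl38, known for its part in the translation of Hox mRNAs, had -0.021 ± 0.11 at 1 h and -0.26 ± 0.11 at 16 h, neither called, and fell by 0.47 ± 0.11 with the inhibitor against control, a call lost with GC offsets and in analysis of partial variance (0.24). Rps25, required for initiation at several internal entry sites, fell by 0.42 ± 0.12 at 1 h, and Rpl10a by 1.56 ± 0.10. Rps26, which contacts mRNA near the exit channel, had -0.44 ± 0.32 (adjusted p = 0.24).

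Among the 6 members whose starts are shown, all with a pyrimidine run across the start and chosen for their changes, Rpl14 (-2.05), Rpl15 (-2.01), Rps6 (-1.92) and Rpl7a (-1.72) fell in translational efficiency at 1 h, whereas Rplp2 (-1.07) and Rpl38 (-0.021) were not called. No test was made of run length against change.

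Other genes of the translation machinery were read from lists beside the members. Of 23 other TOP mRNAs, which share the start tract, 18 fell and 3 rose in translational efficiency at 1 h (median -1.03; 34.4% and 33.4% of all genes), and 20 fell and 0 rose with the inhibitor against control (median -0.93; 27.1% and 16.3% of all genes). The elongation factor subunit Eef1b2 changed by -1.96 ± 0.074 at 1 h and by -1.93 ± 0.074 with the inhibitor against control, and the initiation factor subunit Eif3h by -1.75 ± 0.075 at 1 h. The poly(A)-binding protein Pabpc1 rose by 1.67 ± 0.064 at 1 h and fell by 0.41 ± 0.064 with the inhibitor against control. Of 75 mitochondrial ribosomal protein genes, whose mRNAs are also short, 54 fell and 5 rose at 1 h (median -0.66). With the inhibitor 50 of these rose and 6 fell against 16 h (median 0.47; 26.4% and 33.7% of all genes), and 21 fell and 2 rose against control (median -0.17), beside 20 higher and 12 lower, and 73 lower, for the cytosolic members.

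Ribosome assembly factors moved opposite to the ribosomal proteins under the inhibitor, though they were not compared with other genes of the same coding length. Of 42 biogenesis genes, 34 rose and 1 fell in cytosolic RNA at 16 h against control (median 0.51), where 37.9% of all genes rose and 39.4% fell. With the inhibitor against 16 h 38 fell and 2 rose (median -1.03), whereas 73 ribosomal protein genes rose; over all genes 32.5% fell and 42.2% rose. Nop14, a factor of small-subunit assembly, fell by 1.95 ± 0.040, the RNA polymerase I subunit Polr1b by 1.68 ± 0.046 and the nucleolar protein Nolc1 by 1.36 ± 0.038. Among 18 genes that control TOP mRNAs, 9 fell and 4 rose in cytosolic RNA in the same comparison (median -0.17), against the same shares of all genes. Larp1 fell by 1.22 ± 0.041, the translation repressor Eif4ebp2 rose by 1.42 ± 0.045, and Sesn2, an inhibitor of mTORC1 signalling induced by stress, fell by 3.21 ± 0.12 after having risen by 2.06 ± 0.11 at 16 h against control. Of 13 ribosome quality control genes 9 fell and 1 rose in this comparison (median -0.40). The protein activities of these regulators were not measured.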

How the data were processed

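The authors deposited raw counts per gene symbol for 32 libraries. The submitters' processing notes name HISAT, the mm10 build and DESeq2 1.9.23. How reads were assigned to genes, with or without strand, and from which annotation is not given in the sources used here. Counts were analysed with edgeR 4.0.16 (TMM factors, filterByExpr with minimum count 10 and minimum total 15, robust quasi-likelihood fit) over all genes: 12366 in cytosolic RNA, 12065 in polysome RNA and 12561 in translational efficiency. Each RNA kind was fitted over 16 libraries (12 residual degrees of freedom). Translational efficiency was the interaction of RNA kind and condition over 32 libraries with the sample as a block, since both libraries of a sample come from the same RNA. Genes were called at a Benjamini-Hochberg adjusted p under 0.05 over all genes tested. Levels are TMM-scaled CPM, ratios are log2 with a prior count of 2, errors of changes are SE, and 95% intervals use the t distribution with the residual degrees of freedom.

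Libraries of a group were checked for repeats (lowest chi-square per degree of freedom 2.29), and none was found. Nothing in the labels ties replicates to separate cultures: p-values cover the spread of these samples only, and it may be technical. Coding length, GC content and coordinates came from GENCODE M21 (GRCm38, the mm10 build), and start sequences from RefSeq. Members and lists were chosen with earlier results of these data known. Named members were the 5 lowest and 5 highest in translational efficiency for 3 of the comparisons, the 3 lowest and 3 highest called in cytosolic RNA (at least 5 CPM), members fixed by role, and up to 3 genes of each other list with the smallest p. Alternatives were DESeq2 size factors, DESeq2 1.42.0 as the test, TMM without the members, no low-count filter, a replicate block and leaving out each sample. Coding length offsets were run in polysome RNA and translational efficiency only. No sample block and analysis of partial variance were run in translational efficiency only. The slope in analysis of partial variance was free in sign and size and rested on the spread within conditions. GC offsets and restriction to the 77 single-gene protein-coding symbols were added after seeing the data. The restriction is not a new fit: it keeps the values of the main fit and only drops members. The scripts were tested on simulated data.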

Additional observations from a re-analysis of the deposited data

Results flagged for a closer look

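Shares of counts, cytosolic levels and ratios of polysome to cytosolic RNA were examined for a sample far from the other 3 of its group in 84 groups, and 2 were marked, where chance marks about 1 in 20. Rpl7a in 16 h replicate 4 had a log2 ratio of -0.370, while the other 3 samples lay between -0.515 and -0.509. The gap is small on the scale of the Rpl7a changes, and the distance to the nearest sample was 0.956 of the range of the group. Rplp1 in replicate 2 of the inhibitor group had -1.60, while the other 3 samples lay between -2.52 and -2.47.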

How the results depend on the processing

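No count of called members changed by more than 1.5 times under DESeq2 size factors, the DESeq2 test or TMM without the members. The same held with no low-count filter, no sample block and GC offsets. Counts over the 77 single-gene symbols reuse the values of the main fit, so they could hardly differ. Coding length offsets gave 35 called members in polysome RNA for the inhibitor against 16 h (62 without them) and 6 in translational efficiency for 16 h against 1 h (19). Analysis of partial variance gave 40 for 16 h against 1 h (19), 51 for the inhibitor against 16 h (32) and 21 for the inhibitor against control (73), all in translational efficiency. Leaving out 1 sample at a time gave 11 to 19 called members for 16 h against 1 h. The causes of these shifts were not tested.

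With coding length offsets, log2 changes of named members reversed in polysome RNA at 1 h (Rpl39 -0.59, Rpl41 -0.33, Rplp0 0.36, Rps27_Rps27rt -0.040, Rps27l -0.24), for 16 h against 1 h (Rpl38 0.14, Rpl39 0.060), for the inhibitor against 16 h (Rpl10a -0.19, Rpl36a -0.043, Rps27a -0.029, Rps4x -0.092, Rps6 -0.12) and against control (Rpl38 -0.30). In translational efficiency they reversed at 1 h (Rpl39 -0.44, Rpl41 -0.74, Rps27l -0.095, Rps28 -0.35, Rpsa 0.33), at 16 h (Rpl39 -0.51, Rpl41 -1.01) and for the inhibitor against 16 h (Rpl10a -0.18, Rpl11 -0.24, Rpl38 0.35, Rpl39 0.25, Rpl41 0.88, Rps4x -0.28, Rps6 -0.28). With GC offsets, chosen after seeing the data, polysome changes reversed for Rpl38 at 16 h (0.044) and for Rpl22 (0.17) and Rpl5 (0.29) under the inhibitor against 16 h. With analysis of partial variance, changes reversed at 1 h (Rpl39 -0.015, Rps27l -0.020), at 16 h (Rpl36al 0.086), for 16 h against 1 h (Rpl22 0.33, Rpl36al 0.33, Rpl5 0.73, Rps27a 0.78, Rps6 0.51), for the inhibitor against 16 h (Rpl36a 0.49, Rpl39 0.016, Rps27_Rps27rt 0.048, Rps27l 0.19) and against control (Rpl36al 0.74, Rpl38 0.24, Rplp0 0.12, Rps26 0.45, Rps27_Rps27rt 0.093). The causes were not tested. Of the other values of named members, 2819 kept direction and call, 80 lost the call and 84 gained it. Of 2920 values from fits that each left out a sample, 4.69% lost the call and 1.61% gained it.

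Same-numbered libraries of different conditions had correlations of deviations from -0.705 to 0.842 (median 0.0176) in cytosolic RNA and from -0.652 to 0.746 (median -0.0351) in polysome RNA. Of 24 pairs in each RNA kind, 6 and 7 correlated best with their own number. In cytosolic RNA all pairs of replicate 3 were positive (0.212 to 0.512), but those of the other numbers took both signs. Control and 16 h pairs were all positive, at 0.842, 0.635, 0.37 and 0.0239 in cytosolic RNA. In polysome RNA they were 0.0386, 0.0919, 0.746 and 0.584. Control and 1 h pairs were -0.660, -0.635, 0.212 and -0.0883 in cytosolic RNA, and all negative in polysome RNA. What same-numbered samples share beyond the number was not tested. With the replicate block, translational efficiency was called for 4 members higher and 59 lower at 1 h, 1 and 65 at 16 h, and 0 and 73 for the inhibitor against control. This block fits the same effect of a replicate number in all conditions, so it does not cover sharing between some conditions only. Few counts limit the precision for some members: Rpl29, at 0.72 CPM in control cytosolic RNA, was not called in translational efficiency at 1 h.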
